A study of Mus musculus with 12 samples.

Results

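The comparison described here is that of C166 cells carrying the shRNA named VEGF-up with C166 cells carrying a GFP vector, across all genes on the array. It takes every array labelled with either group, 4 arrays of VEGF-up and 4 of GFP, which is 8 of the 12 arrays of the series. C166 is an established mouse line from the yolk sac, given in the labels as endothelial. At 20% confluency the cells received a lentiviral vector at a multiplicity of infection of 10. The GFP vector carried GFP alone, and the VEGF-up vector carried GFP together with an shRNA complementary to part of the Vegfa promoter and chosen to raise Vegfa. The remaining 4 arrays, VEGF-down, are from cells with GFP and a promoter shRNA chosen to lower it. Medium was renewed after 72 h, total RNA was taken on day 7, and more than 99% of the cells expressed GFP. GFP cells carried no shRNA, so having any shRNA and having this sequence cannot be told apart in this comparison, and all groups share the GFP transgene, the viral vector and 1 cell line. The labels do not say whether replicates were separate cultures, so the p-values measure the spread between these samples and no more.

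A short hairpin RNA is cut in the cell into a small RNA that an Argonaute protein uses to find complementary RNA. When the complementary stretch lies in a promoter, the small RNA can lower or raise transcription of the gene, and it can also bind messages of other genes through a short seed. The genes below are those of pathways through which endothelial and other stromal cells signal and build matrix: chemokines and complement, growth factors with their binding proteins, proteoglycans and proteases, and the enzymes that supply amino acids. The last group contains many genes switched on by ATF4, a transcription factor that cells make when amino acids are short or the endoplasmic reticulum is loaded.

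Median intensity lay between 35.6 and 36.6 on the 8 arrays. The deposited values were quantile normalized, which makes arrays alike, so these medians do not measure depth of signal. Arrays of 1 group correlated over all genes at 0.9987 or more on average. The correlation between a VEGF-up and a GFP array was between 0.9975 and 0.9983. Signal was called background at or below a log2 intensity of 3.07, the 95th percentile of 68 chemosensory receptor probe sets. The GFP arrays varied more among themselves than the VEGF-up arrays, with a larger standard deviation in GFP for 6626 of the 10908 probe sets whose mean over all 12 arrays was above background. All values below are log2 intensities unless a fold is named.

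The endothelial label was checked against its markers. Of 28 endothelial identity genes, 11 were above background in either group. Pecam1, which encodes the junction protein CD31, was at 2.44 in GFP cells, and Cdh5, the gene of VE-cadherin, was at 2.61. The genes of the receptor Tek, of the clotting protein Vwf and of the transcription factor Erg were also below background in both groups. Egfl7 (6.21), Fli1 (5.79), Nos3 (4.99) and Kdr (4.96) were above it. Of 21 mesothelial markers, 20 were above background, and the highest in GFP cells were Ezr (12.60), Gpm6a (12.10), Upk3b (11.66) and Bnc1 (11.55). Blood cell markers such as Ptprc (2.43) and Adgre1 (2.74) were below background, and 4 of 16 exceeded it. The cells are therefore called by their line name.

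**Figure D1:**
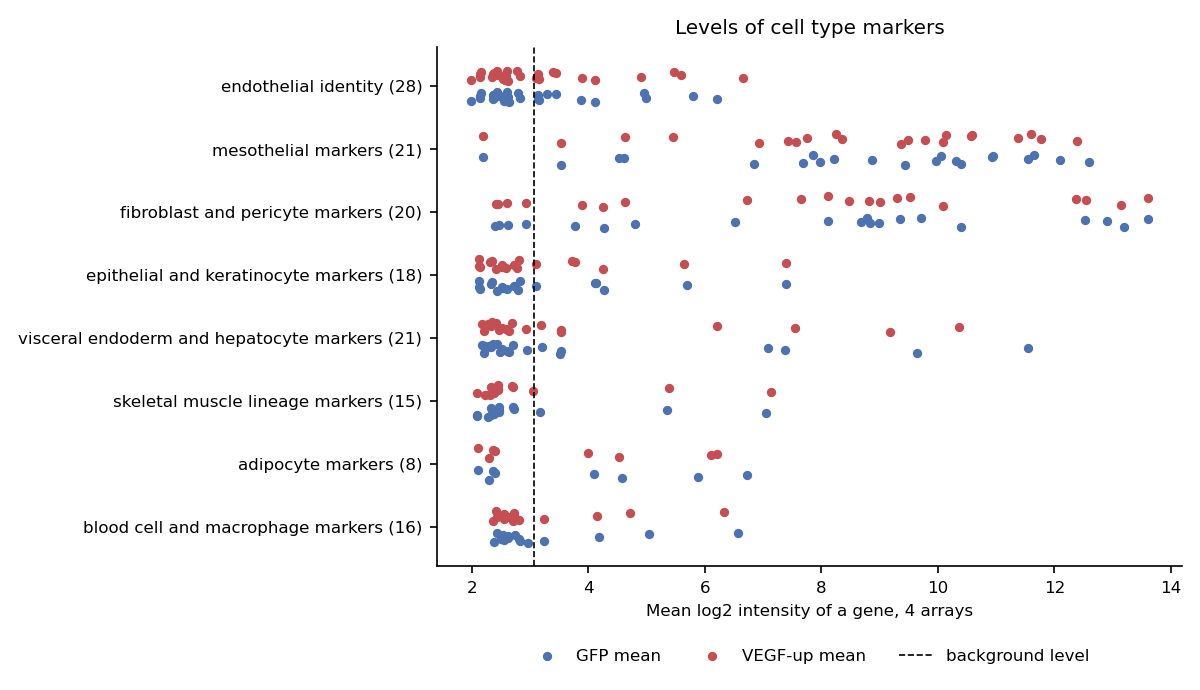
Mean log2 intensity of each gene in 8 lists of cell type markers, with GFP means in blue, VEGF-up means in red and the background level as a dashed line; the number of measured genes stands after each list name. Most endothelial identity genes lie at or left of the line in both groups, while 20 of 21 mesothelial markers lie right of it.

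In VEGF-up cells 10 of the 21 mesothelial markers fell (47.6%) and 2 rose (9.52%). Of all probe sets above background in either group, 10.1% fell and 10.6% rose. The mean level of the 21 markers was between 8.64 and 8.70 on the GFP arrays and between 8.52 and 8.55 on the VEGF-up arrays, so the groups did not overlap. The largest falls were those of Nkain4 (-0.55), Igfbp6 (-0.53), the claudin gene Cldn15 (-0.52) and Rspo1 (-0.48). The rises were those of Krt19 (0.92) and of Msln, the gene of mesothelin (0.39). Wt1, the gene of a mesothelial transcription factor, differed by 0.08 ± 0.05 (SE, adjusted p = 0.292), which did not pass the test. Of 20 fibroblast and pericyte markers 6 fell (30%) and 1 rose (5%). Their mean level was between 7.68 and 7.78 on GFP arrays and between 7.61 and 7.65 on VEGF-up arrays. In RNA from whole cultures, fewer cells of a type and less RNA per cell cannot be told apart. The part of these markers in the results below was not tested.

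Vegfa checks the labels. Its levels were 7.15, 7.37, 7.13 and 7.15 in GFP cells and 7.35, 7.66, 7.68 and 7.48 in VEGF-up cells. GFP replicate 2 was above VEGF-up replicate 1, so the groups overlapped. The log2 difference was 0.34 ± 0.08 (SE, adjusted p = 0.0134), and a two-sided exact permutation test on these 8 levels gave p = 0.0571, where 0.0286 is the smallest that 4 against 4 arrays allow. With arrays scaled to spike-in RNAs the difference was 0.17 and did not pass (adjusted p = 0.1). The promoter of Vegfa is shown because the shRNA was aimed at it; the position of the shRNA within it is not given in the sources used here. The sequence runs from 250 bases before to 50 bases after the upstream start in RefSeq (GRCm38.p6, chr17:46032328-46032627, minus strand), and its GC content is 62%.
Vegfa: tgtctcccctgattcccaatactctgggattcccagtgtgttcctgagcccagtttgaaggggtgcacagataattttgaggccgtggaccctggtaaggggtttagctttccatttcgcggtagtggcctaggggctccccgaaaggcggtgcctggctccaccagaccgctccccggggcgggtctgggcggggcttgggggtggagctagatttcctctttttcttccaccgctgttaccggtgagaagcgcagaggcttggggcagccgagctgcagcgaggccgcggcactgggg

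Of 17306 probe sets, each standing for 1 gene, 1165 rose and 1126 fell. That is 13.2% changed, 6.73% rising and 6.51% falling, and these shares are the background for every list below. Among the 10950 probe sets above background in either group 20.7% changed, 10.6% rising and 10.1% falling, which is the closer standard for a list of expressed genes. The changes were small: their median size was 0.24, and 69 rises and 135 falls reached 1.5-fold. The groups did not overlap for 17.8% of all probe sets. Of the 35 pathway lists, complement and innate recognition had the largest share of falls and the aminoacyl-tRNA synthetases had the largest share of rises. The median difference of all genes was -0.01 as deposited. It became -0.18 when arrays were scaled to the poly-A spike-ins, RNAs added to each sample before labelling, whose mean level was between 7.13 and 7.47 on GFP arrays and between 7.43 and 7.51 on VEGF-up arrays. Rises are therefore relative to the median gene: with that scaling 179 probe sets rose and 3183 fell. In that fit the estimated spread was much the same for all genes: adjusted p for Ces1d was 6.25e-162, against 2.22e-08 as deposited. Calls with spike-in scaling, here and below, thus rest on a different estimate of spread. Their counts do not compare directly with those of the main fit.

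**Figure D2:**
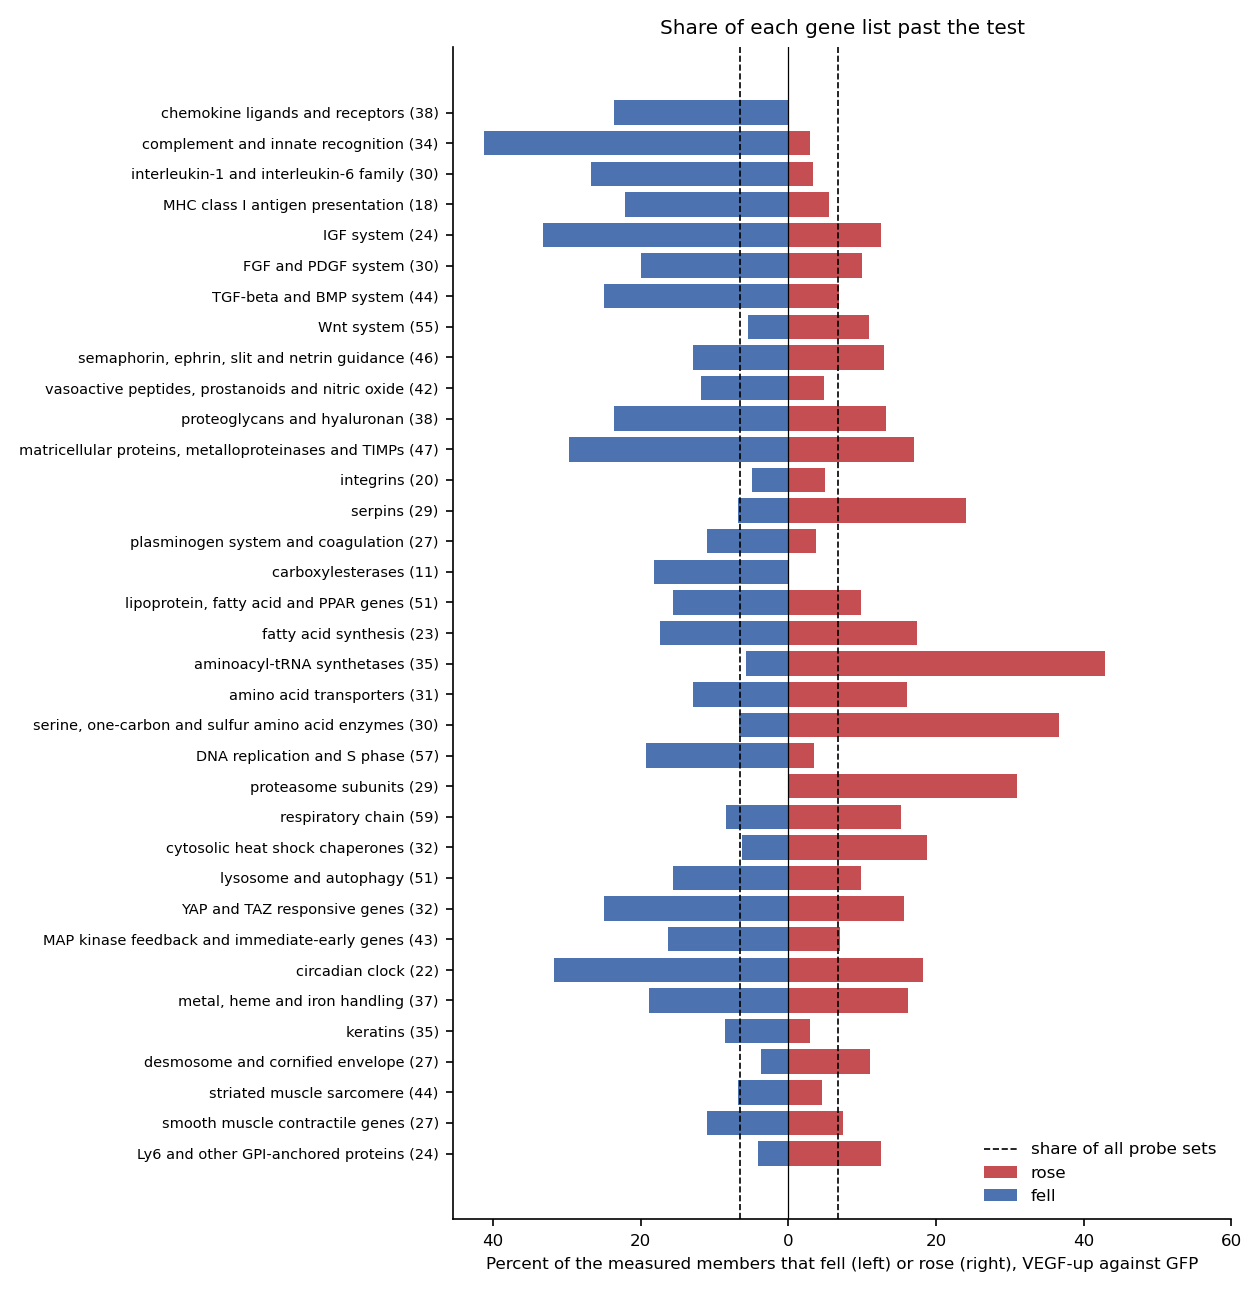
Percent of the measured genes of each pathway list that fell (blue, to the left) or rose (red, to the right) in VEGF-up against GFP cells, with the number measured after each name. Dashed lines mark the shares over all probe sets, 6.51% falling and 6.73% rising. The closer standard for lists of expressed genes, 10.1% falling and 10.6% rising, is not drawn. Falls extend furthest for complement and innate recognition and rises for the aminoacyl-tRNA synthetases.

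Several chemokine genes fell in VEGF-up cells. Of 38 measured ligand and receptor genes, 9 fell (23.7%). By limma 0 rose, also at an unadjusted p under 0.05, where 14 fell, and with spike-in scaling 15 fell. Ccl2, whose product draws monocytes, had levels of 11.51, 11.48, 11.47 and 11.65 in GFP cells and 10.05, 9.98, 10.01 and 9.97 in VEGF-up cells. Every VEGF-up array lay below every GFP array, and the difference was -1.52 ± 0.04 (SE, adjusted p = 2.22e-08). The neighbouring gene Ccl7, which encodes another monocyte chemokine, fell from 8.24 to 6.74, a difference of -1.50 ± 0.07 (SE, adjusted p = 5.07e-07). Both were also lower in VEGF-up than in VEGF-down cells: the log2 difference between the shRNA groups, where 30.6% of all probe sets passed the test, was -0.83 ± 0.04 (SE, adjusted p = 5.92e-08) for Ccl2 and -0.72 ± 0.07 (SE, adjusted p = 9.9e-06) for Ccl7. The fall was not particular to VEGF-up. In VEGF-down against GFP cells Ccl2 differed by -0.694 (adjusted p = 3.16e-07) and Ccl7 by -0.785 (adjusted p = 5.83e-06). There 10 genes of the list fell and 3 rose, where 31% of all probe sets changed.

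Cxcl15 and Cxcl1, whose products draw neutrophils, fell too. Cxcl15 went from 11.05 to 9.78, a difference of -1.27 ± 0.05 (SE, adjusted p = 3.16e-07). Cxcl1 had levels of 10.48, 11.30, 10.82 and 10.81 in GFP cells and 9.76, 9.91, 9.99 and 10.00 in VEGF-up cells, with GFP replicate 2 the highest and no overlap, and a difference of -0.94 ± 0.14 (SE, adjusted p = 0.000942). Ccl9 (-0.83), Cxcl16 (-0.63) and Ccl20 (-0.62) fell by less. The call of Cxcl5 (-0.45) was lost without any 1 of 6 of the 8 arrays (adjusted p up to 0.123), and that of Cxcl10 rested on levels below background in both groups. Cxcl12, the ligand that keeps progenitor cells in place, was at 11.72 and 11.74, and its scavenger receptor gene Ackr3 differed by 0.01. Neither passed the test. The median over the list was -0.01, but 19 of the 38 genes lay at or below background in both groups. Over the other 19 it was -0.31, as a description, where all probe sets above background had a median of -0.01.

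Genes of complement and of the receptors that sense bacterial products had the largest share of falls among the pathway lists. Of 34 measured, 14 fell (41.2%) and 1 rose, with a median of -0.11. Cd14, whose product hands lipopolysaccharide to Toll-like receptors, had levels of 9.42, 9.53, 9.61 and 9.78 in GFP cells and 8.48, 8.68, 8.57 and 8.43 in VEGF-up cells. The groups did not overlap, and the difference was -1.04 ± 0.07 (SE, adjusted p = 7.5e-06). Downstream of it, Myd88, the adaptor gene of most Toll-like receptors, fell by a smaller amount with little spread, -0.53 ± 0.02 (SE, adjusted p = 2.7e-07). The receptor gene Tlr2 (-0.58), the intracellular sensor gene Nod1 (-0.30) and the lipopolysaccharide-binding gene Lbp (-0.29) also fell, while Tlr4 itself differed by 0.04 and did not pass. The fall of Ly96, which encodes the partner of Tlr4 (-0.27), was lost without any 1 of 4 of the 8 arrays (adjusted p up to 0.0814).

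Within complement the falls covered the proteases of the first step and their inhibitors. C1ra, a protease gene of the C1 complex, fell by 0.60 ± 0.08 (SE, adjusted p = 0.00061) and its partner C1s1 fell by 0.56 ± 0.07 (SE, adjusted p = 0.000221). Serping1, the gene of the C1 inhibitor, fell from 10.69 to 10.10, and Cfi, which encodes the protease that inactivates C3b, from 7.03 to 6.24. Cd55, a surface inhibitor, fell by 0.38 ± 0.07 (SE, adjusted p = 0.00279), and Cr1l, another surface regulator, rose by 0.23 ± 0.05 (SE, adjusted p = 0.017). The call of Cr1l was lost without any 1 of 2 of the 8 arrays (adjusted p up to 0.0528).

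Acute-phase genes of the same list were among the most abundant. Saa3 had levels of 12.97, 13.05, 12.82 and 12.73 in GFP cells and 11.97, 12.14, 12.03 and 12.03 in VEGF-up cells, and Hp, the gene of haptoglobin, 11.17, 11.09, 11.15 and 11.34 in GFP cells and 10.29, 10.21, 10.14 and 10.20 in VEGF-up cells. The groups did not overlap for either gene, and the differences were -0.85 ± 0.09 (SE, adjusted p = 9.14e-05) and -0.97 ± 0.05 (SE, adjusted p = 1.22e-06). Relative to VEGF-down cells both were higher, Saa3 by 1.98 ± 0.09 (SE, adjusted p = 2.13e-08) and Hp by 0.49 ± 0.05 (SE, adjusted p = 2.12e-05). C1ra was lower than in VEGF-down cells, with a difference of -1.13 ± 0.08 (SE, adjusted p = 1.1e-06).

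On the list of the interleukin-1 and interleukin-6 families, 8 of 30 genes fell (26.7%) and 1 rose (3.33%), with a median of -0.03. Some genes on it, such as Il4ra, Il15 and Il17ra, belong to other cytokine families. Il18, the gene of a cytokine activated by inflammasomes, fell by 0.67 ± 0.05 (SE, adjusted p = 1.14e-05), and Il33, whose product is released from damaged cells, fell by 0.36 ± 0.04 (SE, adjusted p = 0.000155). Of the interleukin-6 family, the receptor gene Lifr (-0.32) and the signal transducer gene Stat3 (-0.38) fell. The falls of the receptor genes Osmr (-0.22) and Il6ra (-0.22) were lost without any 1 of 5 of the 8 arrays (adjusted p up to 0.0802) and lost without any 1 of 3 of the 8 arrays (adjusted p up to 0.0511). Il6 itself went the other way: its levels were 4.79, 5.84, 5.63 and 5.17 in GFP cells and 6.03, 6.06, 6.14 and 6.02 in VEGF-up cells, without overlap and with a wide spread in GFP, and the difference was 0.71 ± 0.19 (SE, adjusted p = 0.0318). That call was lost without any 1 of 5 of the 8 arrays (adjusted p up to 0.0728). Of 18 genes of class I antigen presentation, 4 fell, among them Tapbp, the gene of the peptide-loading factor tapasin (-0.55 ± 0.03 SE, adjusted p = 2.83e-06), the immunoproteasome gene Psmb10 (-0.40) and B2m (-0.18), and the chaperone gene Canx rose (0.12).

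The insulin-like growth factor system was lower at the level of ligands and receptor, while some genes that free the ligands from their carriers were higher. Of 24 genes, 8 fell (33.3%) and 3 rose (12.5%), with a median of -0.02. Igf1, the gene of a growth factor for muscle, bone and many stromal cells, had levels of 9.59, 9.07, 9.35 and 9.39 in GFP cells and 7.88, 7.98, 7.91 and 7.89 in VEGF-up cells. The groups lay more than 1 log2 unit apart, and the difference was -1.44 ± 0.09 (SE, adjusted p = 2.8e-06). Igf2 fell by 0.69 ± 0.04 (SE, adjusted p = 1.41e-06), and H19, the imprinted RNA transcribed beside it, fell by 1.56 ± 0.10 (SE, adjusted p = 3.69e-06). The fall of H19 was not particular to VEGF-up: in VEGF-down against GFP cells it was larger, at -4.66 (adjusted p = 1.42e-10). The receptor gene Igf1r fell by 0.31 ± 0.02 (SE, adjusted p = 3.74e-06) and Irs1, which encodes the adaptor below it, fell by 0.41 ± 0.04 (SE, adjusted p = 6.59e-05). In the direct test against VEGF-down cells Igf1 (-1.12 ± 0.09 SE, adjusted p = 1.82e-06) and Irs1 (-1.35 ± 0.04 SE, adjusted p = 1.22e-09) were lower in VEGF-up cells, whereas Igf2 differed by -0.01 ± 0.04 (SE, adjusted p = 0.955).

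The binding protein genes Igfbp6 (-0.53), Igfbp3 (-0.35) and Igfbp7 (-0.35) fell and Igfbp4 rose (0.19). Pappa, whose protease cuts the Igfbp4 protein and releases its ligand, had levels of 6.17, 6.17, 6.17 and 6.16 in GFP cells and 6.76, 6.74, 6.79 and 6.73 in VEGF-up cells, a difference of 0.58 ± 0.04 (SE, adjusted p = 1.18e-05). The 4 GFP values lay within 0.02 of each other. Of the probe sets that rose, 34 had a GFP group as flat and above background, and of those that fell, 31 had such a VEGF-up group; whether these values are floors of the probe sets was not tested. Htra1, another protease gene of this system, rose by 0.35 ± 0.04 (SE, adjusted p = 0.000356). With spike-in scaling Htra1 and Igfbp4 did not pass the test.

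Among other growth factor genes, 6 of 30 in the FGF and PDGF list fell (20%) and 3 rose (10%), with a median of -0.03. The receptor genes Pdgfra (-0.67 ± 0.05 SE, adjusted p = 1.6e-05), Pdgfrb (-0.20) and Fgfr2 (-0.26) fell. The rises were those of Spry1, a feedback inhibitor of receptor tyrosine kinases (0.53 ± 0.03 SE, adjusted p = 2.76e-06), of its relative Spry2 (0.26) and of the ligand gene Fgf9 (0.56). Of 44 TGF-beta and BMP genes 11 fell (25%) and 3 rose (6.82%), with a median of -0.02. The largest change was in Ltbp2, which encodes a matrix protein of microfibrils (-0.84 ± 0.06 SE, adjusted p = 7.08e-06), and the ligand genes Tgfb2 (-0.25) and Tgfb3 (-0.20) and the BMP antagonist gene Grem1 (-0.21) fell less. Without GFP replicate 3 or VEGF-up replicate 2 there were 6 falls, and without VEGF-up replicate 4 there were 7.

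Of 55 Wnt genes, 39 of them above background, 6 rose (10.9%) and 3 fell (5.45%). The secreted modulators changed most. Sfrp2, which binds Wnt ligands, fell from 6.35 to 5.09, a difference of -1.25 ± 0.09 (SE, adjusted p = 6.07e-06), and Rspo1, which strengthens Wnt signals, fell by 0.48 ± 0.04 (SE, adjusted p = 2.87e-05). Dkk1, an inhibitor of the Wnt coreceptors, had levels of 2.98, 3.01, 2.69 and 2.81 in GFP cells and 3.56, 4.01, 3.92 and 3.79 in VEGF-up cells. The GFP mean was below background, so the rise was at least 1.68-fold (adjusted p = 6.11e-05). Frzb, another Wnt-binding gene, rose by 0.52 ± 0.04 (SE, adjusted p = 2.12e-05) and the ligand gene Wnt4 by 0.54 ± 0.05 (SE, adjusted p = 5.24e-05).

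Of 42 genes of vasoactive peptides, prostanoids and nitric oxide, 5 fell (11.9%) and 2 rose (4.76%). Agt, the precursor of angiotensin, had levels of 7.70, 7.37, 7.41 and 7.59 in GFP cells and 6.12, 6.21, 6.13 and 6.12 in VEGF-up cells and fell by 1.38 ± 0.07 (SE, adjusted p = 7.47e-07). The difference from VEGF-down cells was 0.06 ± 0.07 (SE, adjusted p = 0.713). Ptgds, which encodes a prostaglandin D2 synthase, fell by 1.21 ± 0.17 (SE, adjusted p = 0.000714), and Enpep, which encodes an angiotensin-cleaving peptidase, fell by 0.43 ± 0.07 (SE, adjusted p = 0.00133). The 2 rises were the subunits of the nitric oxide receptor, soluble guanylate cyclase, Gucy1a1 (0.38 ± 0.06 SE, adjusted p = 0.00143) and Gucy1b1 (0.36 ± 0.06 SE, adjusted p = 0.00197), and neither passed with spike-in scaling. Of 46 guidance genes 6 rose (13%) and 6 fell (13%), led by Sema3d (-0.66), Efnb2 (0.42) and Slit3 (0.42). Without GFP replicate 1, or without any 1 of the 4 VEGF-up arrays, 3 guidance genes fell.

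Genes of the extracellular matrix changed in both directions. Of 38 proteoglycan and hyaluronan genes 9 fell (23.7%) and 5 rose (13.2%), with a median of -0.01. The falls included 7 small leucine-rich proteoglycans, which coat collagen fibrils, and the secreted lubricant gene Prg4. Prg4 had levels of 5.42, 5.45, 5.60 and 5.39 in GFP cells and 3.92, 4.05, 3.89 and 3.69 in VEGF-up cells, without overlap, and a difference of -1.58 ± 0.07 (SE, adjusted p = 5.73e-07). Aspn fell by 1.22 ± 0.09 (SE, adjusted p = 1.04e-05) and Fmod fell by 1.08 ± 0.09 (SE, adjusted p = 2.12e-05). Omd (-0.75), Ogn (-0.50), Lum (-0.46) and Dcn (-0.36) fell less, and Kera reached background in VEGF-up cells. The Lum arrays overlapped, and its call was lost without any 1 of 6 of the 8 arrays (adjusted p up to 0.0711). The difference from VEGF-down cells was -3.19 ± 0.07 (SE, adjusted p = 2.2e-10) for Prg4 and 1.52 ± 0.09 (SE, adjusted p = 2.31e-07) for Aspn, which was higher in VEGF-up cells.

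The rises were in cell surface and large proteoglycan genes. Gpc1, a glypican that binds growth factors, rose by 0.58 ± 0.06 (SE, adjusted p = 7.06e-05), and the large hyaluronan-binding proteoglycan gene Vcan by 0.40 ± 0.06 (SE, adjusted p = 0.000563). Cd44, the hyaluronan receptor gene, rose by 0.35 ± 0.03 (SE, adjusted p = 5.16e-05). Gpc4 (0.29) rose less, the call of Sdc1 (0.13) was lost without any 1 of 3 of the 8 arrays (adjusted p up to 0.0572), and Gpc3 fell (-0.47). With spike-in scaling Gpc1 and Vcan passed the test and the other 3 did not.

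Of 47 genes of matricellular proteins, metalloproteinases and their inhibitors, 14 fell (29.8%) and 8 rose, with a median of -0.06. The metalloproteinases split. Mmp3, the stromelysin gene, had levels of 10.28, 10.81, 10.52 and 10.48 in GFP cells and 9.27, 9.39, 9.29 and 9.17 in VEGF-up cells, with GFP replicate 2 the highest and no overlap, and fell by 1.24 ± 0.09 (SE, adjusted p = 8.4e-06). Mmp13, the gene of a collagenase on the same chromosome, rose: its levels were 9.34, 10.00, 9.54 and 9.16 in GFP cells and 10.33, 10.33, 10.41 and 10.30 in VEGF-up cells, a difference of 0.83 ± 0.15 (SE, adjusted p = 0.0034). Mmp11 rose by 0.69 ± 0.05 (SE, adjusted p = 1.14e-05), while the gelatinase gene Mmp2 fell by 0.25. Timp1, an inhibitor gene of these proteases, rose by 0.41 ± 0.04 (SE, adjusted p = 0.000106) and Timp2 fell by 0.19. Among matricellular genes Postn (-0.77), Sparcl1 (-0.85), Smoc2 (-0.54), Tnc (-0.43) and Thbs1 (-0.29) fell. Of 20 integrin genes 1 rose, Itga6, which encodes a laminin receptor chain (0.72 ± 0.08 SE, adjusted p = 0.000171), and 1 fell, Itgb2 (-0.28), whose call was lost without any 1 of 7 of the 8 arrays (adjusted p up to 0.104). Col18a1, the gene of the collagen that yields endostatin, rose by 0.57 ± 0.03 (SE, adjusted p = 9.21e-07).

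Several serpin genes of clade B, whose products act mainly inside the cell against proteases, rose. Serpinb1a, which inhibits neutrophil proteases, had levels of 5.84, 5.69, 5.66 and 5.68 in GFP cells and 6.98, 7.33, 7.06 and 7.11 in VEGF-up cells, without overlap, and rose by 1.40 ± 0.09 (SE, adjusted p = 3.06e-06). Serpinb9b rose by 1.04 ± 0.06 (SE, adjusted p = 2.06e-06), Serpinb9g by 0.60 ± 0.14 (SE, adjusted p = 0.0159) and Serpinb9, a granzyme B inhibitor gene, by 0.39 ± 0.03 (SE, adjusted p = 1.31e-05). The call of Serpinb9g was lost without VEGF-up replicate 4 (adjusted p = 0.0508). Serpinb6a and Serpinb6b each rose by 0.17. These 6 genes lie on chromosome 13, where 11 clade B genes were measured. Of 7 clade B genes on chromosome 1, Serpinb8 fell (-0.42) and the others did not pass the test. These genes are close copies of each other, so a probe set may read more than 1 of them. Over the whole serpin list of 29 genes 7 rose (24.1%) and 2 fell, and with spike-in scaling 3 rose. Of 27 genes of plasminogen and coagulation, which include 2 serpins of the list above, 3 fell, the genes of the anticoagulants Tfpi (-0.32), Pros1 (-0.28) and Procr (-0.18), and the thrombin receptor gene F2r rose (0.32). Without GFP replicate 4, 5 of them fell. In VEGF-up against VEGF-down cells Serpinb1a differed by 0.20 ± 0.09 (SE, adjusted p = 0.117) and Serpinb9b by -0.56 ± 0.06 (SE, adjusted p = 2.03e-05).

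**Figure D3:**
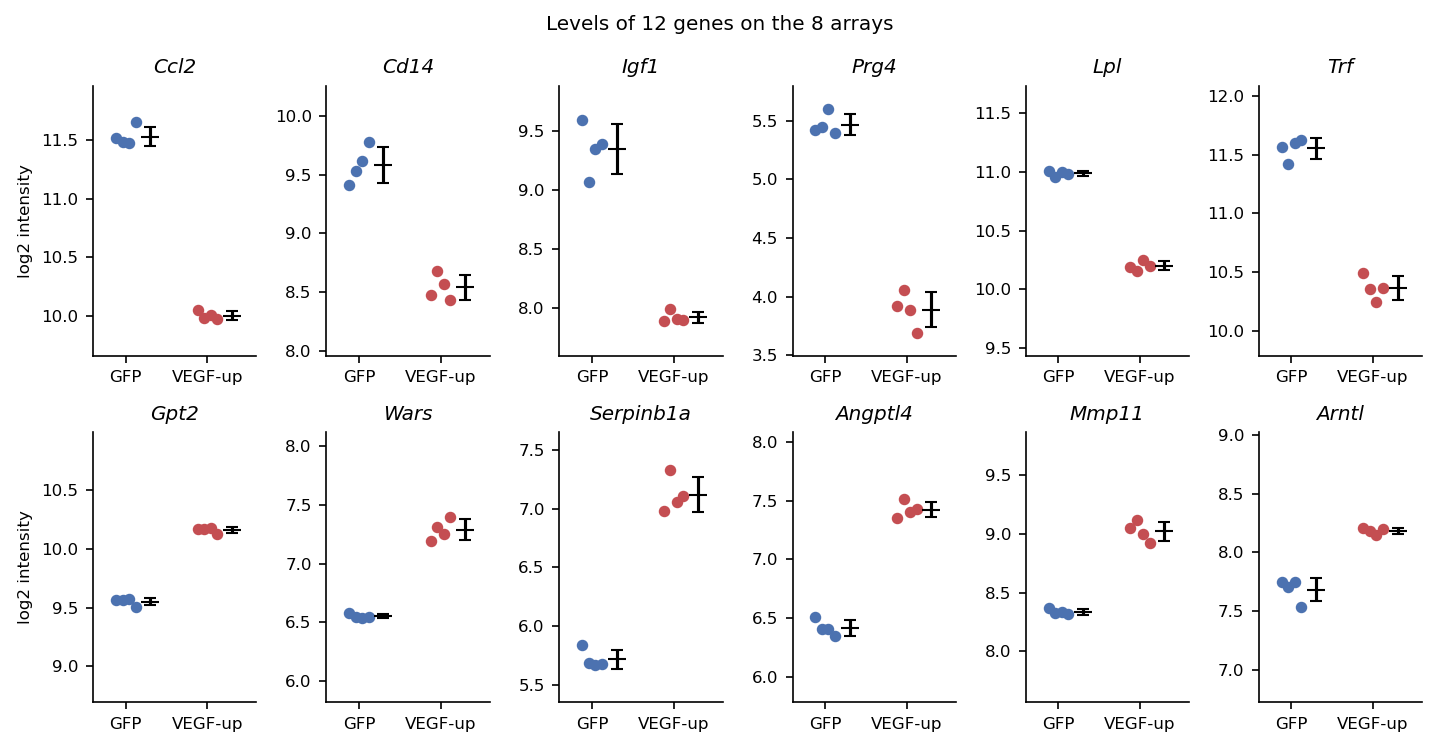
Log2 intensity on each of the 4 GFP arrays (blue) and 4 VEGF-up arrays (red) for 12 genes, with the mean and standard deviation of each group in black; each panel spans the same range of log2 units. The groups do not overlap in any of the 12 panels, with falls from Ccl2 to Trf in the upper row and rises from Gpt2 to Arntl in the lower row. The genes other than Mmp11 and Arntl were named on condition that the groups did not overlap, so their lack of overlap is no check.

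Of 11 carboxylesterase genes 2 fell, and both are among the largest falls of all. Ces1d, a lipid hydrolase gene, had levels of 8.92, 8.81, 8.84 and 8.62 in GFP cells and 6.45, 6.44, 6.32 and 6.29 in VEGF-up cells, a difference of -2.42 ± 0.06 (SE, adjusted p = 2.22e-08). Its neighbour and near copy Ces1g fell by 1.40 ± 0.13 (SE, adjusted p = 3.3e-05), and a probe set for one of such copies may also read the other. The copies differed in VEGF-down against GFP cells, where Ces1d was at -0.47 and Ces1g at 1.62.

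Lipoprotein lipase and its inhibitor moved in opposite directions. Of 51 genes of lipoprotein and fatty acid handling 8 fell (15.7%) and 5 rose (9.8%), with a median of -0.01. Lpl, which encodes the enzyme that frees fatty acids from circulating triglyceride, had levels of 11.01, 10.95, 11.00 and 10.98 in GFP cells and 10.19, 10.16, 10.25 and 10.20 in VEGF-up cells, with little spread, and fell by 0.79 ± 0.02 (SE, adjusted p = 3.56e-08). Angptl4, whose product blocks that enzyme, had levels of 6.51, 6.41, 6.40 and 6.35 in GFP cells and 7.35, 7.52, 7.41 and 7.43 in VEGF-up cells and rose by 1.01 ± 0.06 (SE, adjusted p = 3.32e-06). Relative to VEGF-down cells Lpl was also lower and Angptl4 higher, with differences of -1.10 ± 0.02 (SE, adjusted p = 1.35e-10) and 1.76 ± 0.06 (SE, adjusted p = 4.44e-09). Apoe, the gene of a lipoprotein ligand, fell by 1.33 ± 0.07 (SE, adjusted p = 1.06e-06) and was flat on the VEGF-up arrays at 3.52, 3.53, 3.53 and 3.52. In VEGF-down cells Apoe was lower than in GFP cells too, at -1.38. The fatty acid carrier gene Fabp4 (-0.52), the coactivator gene Ppargc1b (-0.50) and the lysosomal lipase gene Lipa (-0.26) fell, and Acot2 (0.49), Acsl4 (0.32), Pdk4 (0.19) and Plin2 (0.17) rose. In fatty acid synthesis 4 of 23 genes rose (17.4%) and 4 fell (17.4%). Without GFP replicate 1 or 4, or VEGF-up replicate 3 or 4, 2 of them fell, and none of the 4 rises passed with spike-in scaling.

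The aminoacyl-tRNA synthetases, which load each amino acid onto its tRNA, had the largest share of rises. Of 35 measured, 15 rose (42.9%) and 2 fell, with a median of 0.11, and the number that rose was between 14 and 16 when single arrays were left out. With spike-in scaling the median was -0.06, 1 rose and 4 fell, so the direction of the list depends on the scaling. Wars, for tryptophan, had levels of 6.58, 6.55, 6.54 and 6.54 in GFP cells and 7.19, 7.32, 7.26 and 7.40 in VEGF-up cells and rose by 0.74 ± 0.04 (SE, adjusted p = 2.76e-06). It passed also with spike-in scaling, at 0.57. Eprs (0.39), Iars (0.38), Aars (0.37), Lars (0.36) and Sars (0.31) followed. The genes that rose were those of cytosolic enzymes, or of enzymes shared by both compartments, except for the mitochondrial Tars2 (0.27) and Ears2 (0.31), and the call of Ears2 was lost without any 1 of 4 of the 8 arrays (adjusted p up to 0.0898). Both falls were in mitochondrial enzymes: Wars2 fell by 0.36 ± 0.05 (SE, adjusted p = 0.000568) and Iars2 fell by 0.19 ± 0.04 (SE, adjusted p = 0.0095).

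Some enzymes of serine, one-carbon, asparagine and sulfur amino acid metabolism also rose. Of 30 measured, 11 rose (36.7%) and 2 fell, with a median of 0.00. With spike-in scaling the median was -0.17, 5 rose and 8 fell. Gpt2, which makes alanine from pyruvate, had levels of 9.56, 9.57, 9.58 and 9.50 in GFP cells and 10.17, 10.17, 10.18 and 10.13 in VEGF-up cells, and rose by 0.61 ± 0.02 (SE, adjusted p = 7.43e-08). Aldh1l2, a mitochondrial folate enzyme gene, rose by 0.43 ± 0.02 (SE, adjusted p = 5.46e-07), and Cth, whose enzyme makes cysteine, by 0.90 ± 0.16 (SE, adjusted p = 0.00303). Psat1 (0.27) and Psph (0.37), the last steps of serine synthesis, and Shmt2 (0.23) and Mthfd2 (0.31), which pass its carbon to mitochondrial folate, rose, as did Aldh18a1 for proline (0.40), Bcat1 for branched-chain amino acids (0.44) and Asns for asparagine (0.32). Phgdh, the entry step of serine synthesis, differed by 0.14 ± 0.06 (SE, adjusted p = 0.172) and did not pass. The falls were those of Shmt1, the cytosolic counterpart of Shmt2 (-0.48 ± 0.07 SE, adjusted p = 0.000863), and Glul, glutamine synthetase (-0.35 ± 0.07 SE, adjusted p = 0.00875). In VEGF-down cells Gpt2, Aldh1l2 and Cth lay below GFP cells, with Gpt2 at -1.14, Aldh1l2 at -3.32 and Cth at -3.08, and the direct tests of VEGF-up against VEGF-down gave 1.75 ± 0.02 (SE, adjusted p = 1.01e-12), 3.75 ± 0.02 (SE, adjusted p = 1.3e-15) and 3.98 ± 0.16 (SE, adjusted p = 8.48e-09). Of 31 amino acid transporter genes 5 rose (16.1%) and 4 fell (12.9%), led by the leucine transporter gene Slc7a5 (0.55). Without GFP replicate 1 or 2, or VEGF-up replicate 2 or 4, and also with a replicate block, 2 of them fell, and with spike-in scaling 2 rose.

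**Figure D4:**
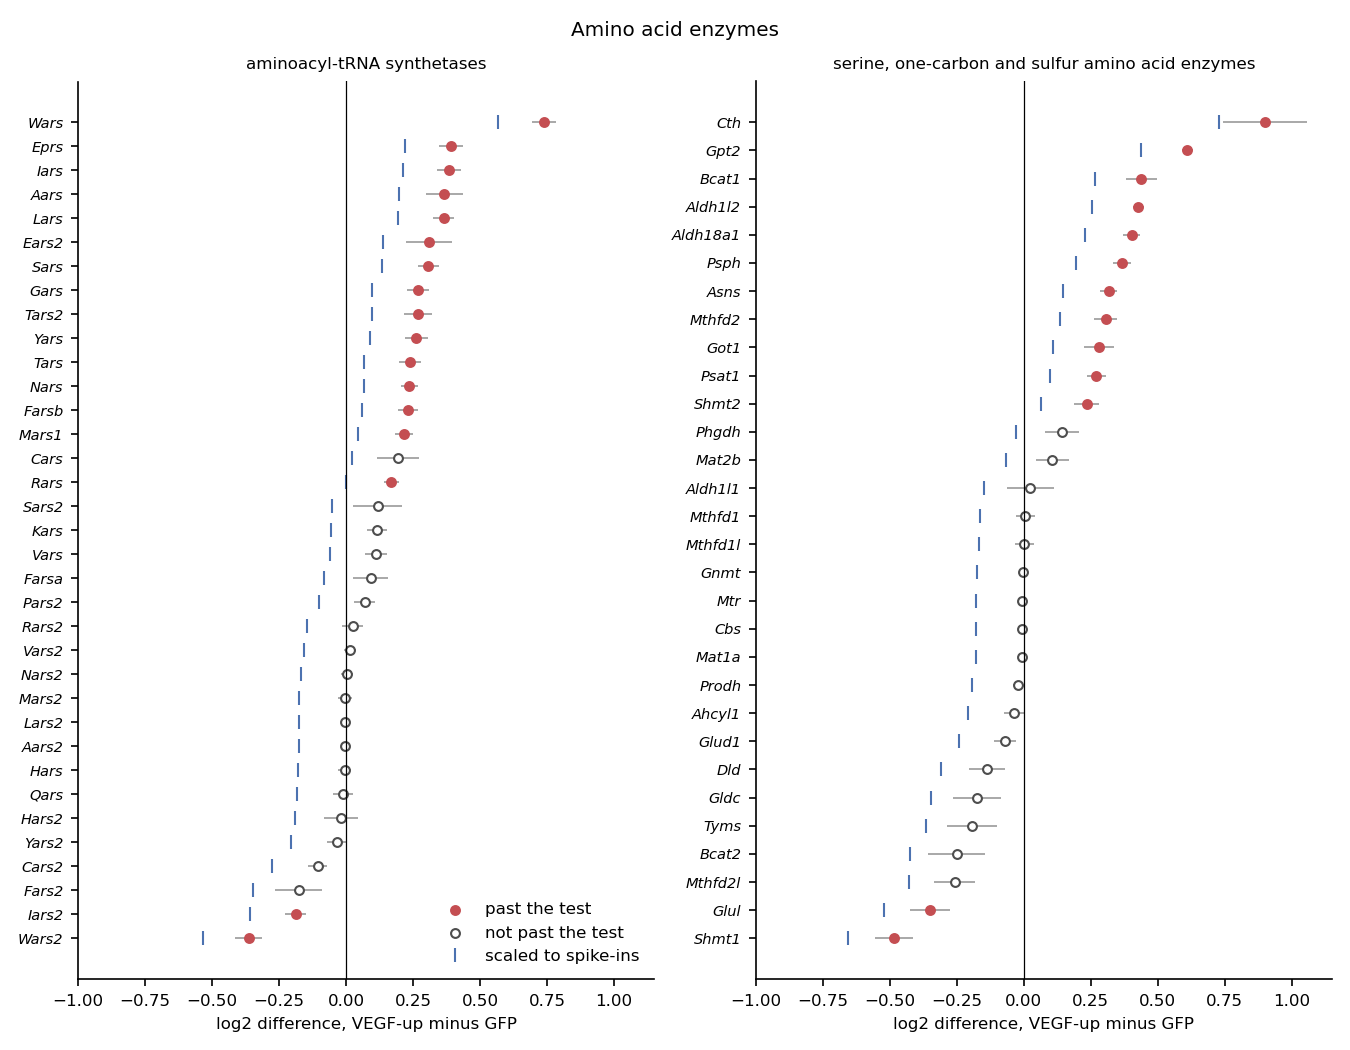
Log2 difference of VEGF-up from GFP cells with its standard error for each measured aminoacyl-tRNA synthetase (left) and each enzyme of serine, one-carbon and sulfur amino acid metabolism (right). Filled circles passed the test, open circles did not, and blue ticks give the difference with arrays scaled to the spike-ins, which moves every gene to the left; Wars and Cth are the top genes.

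The promoters of the synthetase genes were searched for the composite element TGATGNAA that ATF4 and its partners bind, on both strands of the 300 bases from 250 before to 50 after each start in RefSeq. Of the 11 synthetase genes that rose and have a promoter in the table, 5 held a match, Aars, Gars, Iars, Tars and Yars, and of the 15 that did not rise 0 did. Among 13162 named genes with a promoter 3.17% held one. Of 9 rising enzymes of the amino acid list 2 did, Asns and Got1. The motif CACGTG was found in 5 of the same 11 synthetase genes, against 10.5% of all, and in 0 of the 15. A match is a description of the letters and not a bound site, and the search was chosen with the rises known. The stretches of 60 bases around the matches are shown because they hold the element in the synthetase genes that rose and in Asns. Each is read along its gene, with the element, in either orientation, in capitals (GRCm38.p6). The Aars stretches are chr8:111033704-111033763 and chr8:111033825-111033884, Gars chr6:55037945-55038004, Iars chr13:49682111-49682170 and Yars chr4:129189880-129189939 on the plus strand, and Tars chr15:11399640-11399699 and Asns chr6:7693199-7693258 on the minus strand. The elements start at -112 and 9 from the start of Aars, -30 of Gars, 7 of Iars, 3 of Yars, -15 of Tars and -23 of Asns.
Aars, upstream match: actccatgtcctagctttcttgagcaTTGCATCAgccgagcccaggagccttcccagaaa
Aars, downstream match: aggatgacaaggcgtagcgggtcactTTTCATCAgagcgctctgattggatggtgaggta
Gars: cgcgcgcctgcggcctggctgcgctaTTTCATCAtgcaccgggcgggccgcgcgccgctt
Iars: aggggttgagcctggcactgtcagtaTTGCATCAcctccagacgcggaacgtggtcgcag
Yars: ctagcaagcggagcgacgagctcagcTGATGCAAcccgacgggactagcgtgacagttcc
Tars: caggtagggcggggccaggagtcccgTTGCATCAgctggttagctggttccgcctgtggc
Asns: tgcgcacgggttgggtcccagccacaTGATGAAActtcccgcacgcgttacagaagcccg

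For the chemokine genes that fell, the NF-kB motif was searched in the same way. It was found in 1 of 5 with a promoter in the table, Cxcl1, and in 0.555% of all genes. Of the 7 complement and innate recognition genes that fell and have a promoter in the table, 0 held it. The part of NF-kB in these falls was not tested. The Cxcl1 stretch is chr5:90891148-90891207 on the plus strand, with the motif starting at -71, and is shown with the motif in capitals because Cxcl1 is the faller that holds it.
Cxcl1: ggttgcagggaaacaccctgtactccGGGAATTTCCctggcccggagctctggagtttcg

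Proteasome genes showed small rises. Of 29 subunit and regulator genes 9 rose (31.0%) and by limma 0 fell, with a median of 0.10. At an unadjusted p under 0.05, 15 rose and 2 fell. With spike-in scaling the median was -0.07 and 2 fell, so the direction of the list depends on the scaling. The largest rise was that of Psme3, an activator gene (0.31 ± 0.07 SE, adjusted p = 0.00814). The rise of Psmb7, a catalytic subunit (0.26), was lost without any 1 of 2 of the 8 arrays (adjusted p up to 0.0621). Of 59 respiratory chain genes 9 rose (15.3%) and 5 fell (8.47%), led by Uqcrq of complex III (0.28). Of the 59, 58 were above background, and the 23.7% that changed was near the 20.7% of all probe sets above background. The rises numbered 4 without VEGF-up replicate 2 and 5 without GFP replicate 2, GFP replicate 3 or VEGF-up replicate 4. The falls numbered 1 to 3 without GFP replicates 1, 2 or 4 or VEGF-up replicates 1, 3 or 4. Of 32 cytosolic chaperone genes 6 rose (18.8%), led by Hspb8 (0.40), and 2 fell (6.25%), led by Hspa14 (-0.48 ± 0.03 SE, adjusted p = 2.14e-06). On this list GFP replicate 2 stood apart, with a mean level of 7.83 against 7.62 to 7.64 on the other GFP arrays and 7.68 to 7.72 on the VEGF-up arrays. Without it 7 rose and 1 fell, and 1 fell also without GFP replicate 1 or 3 or VEGF-up replicate 1, 3 or 4. With spike-in scaling none of the 6 rises passed and 7 fell.

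Some replication genes fell by small amounts. Of 57 genes of DNA replication and S phase 11 fell (19.3%) and 2 rose, with a median of -0.04. The thymidine kinase gene Tk1 (-0.27), the helicase subunit gene Mcm5 (-0.24), the clamp loader gene Rfc4 (-0.24) and the primase gene Prim1 (-0.23) were among the falls. Cdkn1a, which encodes the cyclin-dependent kinase inhibitor p21, rose by 0.78 ± 0.07 (SE, adjusted p = 3.68e-05).

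Several lists held both rises and falls. Of 32 genes responsive to YAP and TAZ 8 fell (25%), led by Nuak2 (-0.51 ± 0.04 SE, adjusted p = 9.22e-06), and 5 rose (15.6%), among them Ankrd1 (0.44). Without GFP replicate 3 or VEGF-up replicate 3 the rises numbered 3, and with spike-in scaling 2. Of 43 immediate-early and MAP kinase feedback genes 7 fell (16.3%) and 3 rose (6.98%). This list depended on GFP replicate 2, whose mean level over it was 7.07 against 6.84 to 6.89 on the other GFP arrays and 6.80 to 6.88 on the VEGF-up arrays: without that array 5 fell and 6 rose. Without GFP replicate 4 or VEGF-up replicate 4, 4 fell. Nr4a1, an immediate-early gene of a nuclear receptor, fell by 0.70 ± 0.13 (SE, adjusted p = 0.00447), and the difference was -0.57 without GFP replicate 2. Of 51 lysosome and autophagy genes 8 fell (15.7%), led by the protease gene Ctsh (-0.47), and 5 rose (9.8%). Of the 51, 49 were above background, and the 25.5% that changed was near the 20.7% of all probe sets above background.

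The output genes of the circadian clock were lower and one of its activators was higher. In the clock Arntl and Clock switch on the Per, Cry and Nr1d genes and the PAR bZIP genes Dbp, Tef and Hlf, which feed back on them. Of 22 measured clock genes 7 fell (31.8%) and 4 rose (18.2%), with a median of -0.04. Arntl had levels of 7.75, 7.70, 7.74 and 7.54 in GFP cells and 8.21, 8.18, 8.15 and 8.20 in VEGF-up cells, without overlap, and rose by 0.50 ± 0.06 (SE, adjusted p = 0.000132). Its partner gene Clock differed by -0.12 ± 0.04 (SE, adjusted p = 0.0993) and did not pass.

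All 3 PAR bZIP genes fell. Dbp had levels of 7.48, 7.58, 7.22 and 7.43 in GFP cells and 6.76, 7.01, 6.89 and 6.79 in VEGF-up cells, a difference of -0.56 ± 0.09 (SE, adjusted p = 0.00151). Tef had levels of 6.53, 6.51, 6.50 and 6.51 in GFP cells and 6.16, 6.16, 6.13 and 6.19 in VEGF-up cells, a smaller difference with less spread, -0.35 ± 0.02 (SE, adjusted p = 2.14e-06). Hlf fell by 0.46 ± 0.04 (SE, adjusted p = 5.45e-05), and Nfil3, the repressor that competes for the same sites, rose by 0.20 ± 0.06 (SE, adjusted p = 0.0485). Of the repressor genes Nr1d2 (-0.36 ± 0.05 SE, adjusted p = 0.000546) and Per2 (-0.36 ± 0.06 SE, adjusted p = 0.00339) fell without overlap, and Per1 (-0.23) and Bhlhe40 (-0.24) fell with overlapping arrays. The call of Per1 was lost without any 1 of 7 of the 8 arrays (adjusted p up to 0.132). Those of Bhlhe40 and Nfil3 were lost without any 1 of 4 of the 8 arrays (adjusted p up to 0.0604) and lost without any 1 of 7 of the 8 arrays (adjusted p up to 0.118). Cry1 (adjusted p = 0.984) and Cry2 (adjusted p = 0.989) did not pass. Without GFP replicate 1 or 3, or VEGF-up replicate 1, 2 or 4, the rises of the list numbered 2. With spike-in scaling 1 rose and 9 fell. The hour of day of collection is not given in the labels, so the phase of the cultures is unknown. The difference from VEGF-down cells was -1.23 ± 0.09 (SE, adjusted p = 9.35e-07) for Dbp and -0.61 ± 0.02 (SE, adjusted p = 2.38e-09) for Tef, both lower in VEGF-up cells.

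**Figure D5:**
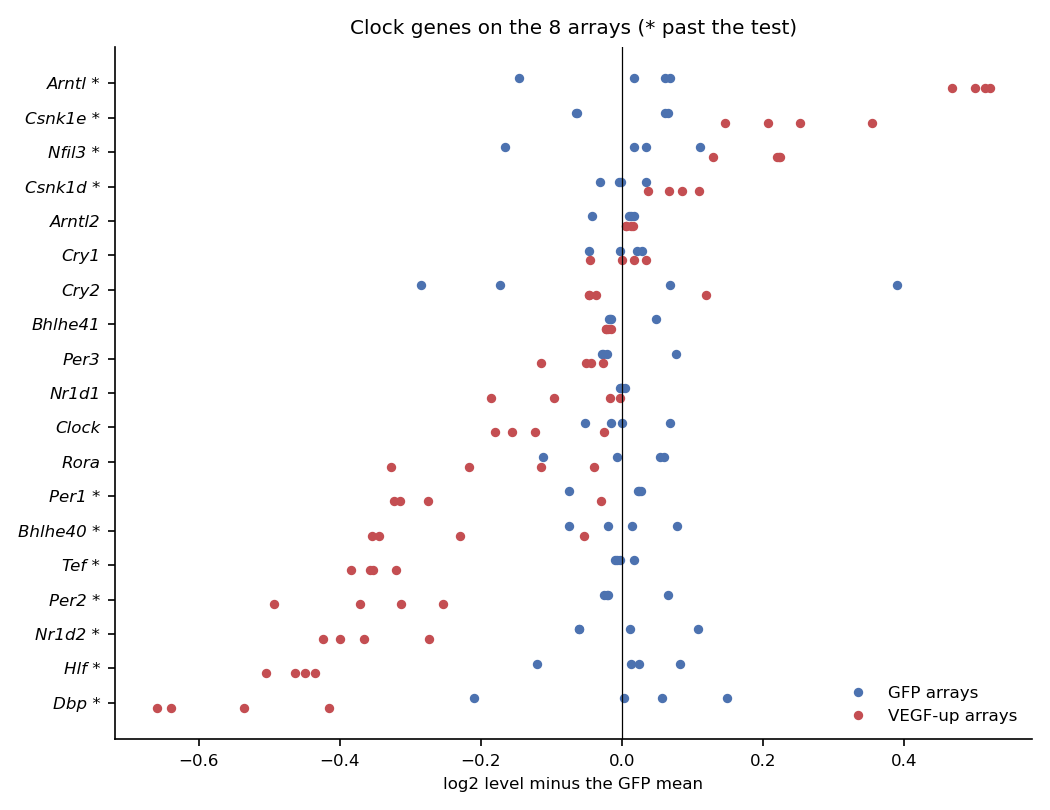
Log2 level of each clock gene above background on the 4 GFP arrays (blue) and 4 VEGF-up arrays (red), minus the GFP mean of that gene, in the order of the difference; an asterisk marks genes past the test. Arntl stands at the top with all VEGF-up arrays to the right of the GFP arrays, and Dbp, Hlf, Nr1d2, Per2 and Tef lie at the bottom without overlap.

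Iron handling changed at its carrier. Of 37 genes of metal and heme handling 7 fell (18.9%) and 6 rose (16.2%), with a median of -0.01. Trf, the gene of the iron carrier transferrin, had levels of 11.56, 11.42, 11.60 and 11.62 in GFP cells and 10.49, 10.36, 10.24 and 10.36 in VEGF-up cells, without overlap, and fell by 1.19 ± 0.05 (SE, adjusted p = 4.17e-07). Hmox1, which degrades heme, fell by 0.83 ± 0.08 (SE, adjusted p = 5.5e-05) and the iron sensor gene Ireb2 fell by 0.47 ± 0.04 (SE, adjusted p = 2.45e-05). Steap1, of a family of metalloreductases, rose by 0.58 ± 0.05 (SE, adjusted p = 3.3e-05). Trf also stands among 21 visceral endoderm and hepatocyte markers, of which 7 were above background, 3 fell and 1 rose. The retinol carrier gene Rbp4 (-0.87) and the endocytic adaptor gene Dab2 (-0.46) were the other falls, and the rise was that of the transcription factor gene Foxa2 (0.17), whose call was lost without any 1 of 7 of the 8 arrays (adjusted p up to 0.112). Alb, the albumin gene, was at 2.71 in GFP cells, below background.

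In the lists of epithelial and muscle genes many members lay at background in both groups. Above it were 8 of 27 desmosome and cornified envelope genes and 11 of 35 keratin genes. So were 21 of 27 smooth muscle genes and 17 of 44 sarcomere genes. Of all members 14.8%, 11.4%, 18.5% and 11.4% changed, in that order, against 13.2% of all probe sets. Members at background lower these shares. Of 27 desmosome and cornified envelope genes 3 rose and 1 fell; 2 fell without GFP replicate 3, and the 1 fall was lost without VEGF-up replicate 3 or 4. Cdsn, the gene of corneodesmosin, had levels of 6.27, 6.17, 6.37 and 6.28 in GFP cells and 7.87, 7.92, 8.21 and 8.02 in VEGF-up cells and rose by 1.73 ± 0.07 (SE, adjusted p = 2.7e-07). Pkp2 (0.37 ± 0.03 SE, adjusted p = 1.77e-05) and Perp (0.46 ± 0.06 SE, adjusted p = 0.000463), both of junctions, rose less. Of 35 keratin genes Krt19 rose (0.92 ± 0.11 SE, adjusted p = 0.000297), while Krt7 (-0.65 ± 0.08 SE, adjusted p = 0.000287), Krt14 (-0.39) and Krt15 (-0.36) fell. The call of Krt15 was lost without any 1 of 4 of the 8 arrays (adjusted p up to 0.0563). Of 27 smooth muscle genes Actg2 (1.11 ± 0.13 SE, adjusted p = 0.000175) and Cnn1 (0.83 ± 0.11 SE, adjusted p = 0.000559) rose and Mylk (-0.59), Myh10 (-0.26) and Cnn2 (-0.19) fell. Of 44 sarcomere genes 3 fell, the fast myosin gene Myh1 (-1.47 ± 0.10 SE, adjusted p = 5.03e-06) and the troponin genes Tnnt2 (-0.88) and Tnnc1 (-0.44), and 2 rose, or 1 without VEGF-up replicate 2. In VEGF-down cells Myh1 was lower than in GFP cells too, at -1.525.

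Of the 73 genes that met the rule for naming, several belong to no list above. Among the rises, Fetub, a secreted protease inhibitor gene, rose from 8.11 to 9.18, a difference of 1.08 ± 0.08 (SE, adjusted p = 1.13e-05). Mtm1, a phosphoinositide phosphatase gene, rose by 1.19 ± 0.16 (SE, adjusted p = 0.000575). Ddah1, whose enzyme degrades an inhibitor of nitric oxide synthase, rose by 0.78 ± 0.06 (SE, adjusted p = 8.74e-06), and its difference from VEGF-down cells was -0.01 ± 0.06 (SE), which did not pass. Stbd1, which anchors glycogen to membranes, rose by 0.78 ± 0.05 (SE, adjusted p = 3.69e-06), Mllt11 by 0.74 ± 0.04 (SE, adjusted p = 9.46e-07) and the receptor gene Adgrg2 by 0.79 ± 0.05 (SE, adjusted p = 2.41e-06). Tbpl1, a relative of the TATA-binding protein, rose by 0.55 ± 0.02 (SE, adjusted p = 7.43e-08), and Antxr2, a receptor gene for anthrax toxin and collagen, by 0.46 ± 0.02 (SE, adjusted p = 2.7e-07). Some calls did not hold when arrays were left out. Of 24 genes of the Ly6 family and other GPI-anchored proteins 3 rose and 1 fell, and without GFP replicate 3, 1 rose. Ly6e of this list had levels of 4.79, 4.68, 4.07 and 3.51 in GFP cells and 5.50, 6.31, 5.29 and 4.98 in VEGF-up cells, and its call was lost without GFP replicate 3 (adjusted p = 0.058). The calls of Ctif (1.16) and Slamf9 (0.77) were lost without any 1 of 6 of the 8 arrays (adjusted p up to 0.118) and lost without GFP replicate 3 (adjusted p = 0.0512).

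Among the falls, Ecrg4 had levels of 5.15, 4.06, 4.70 and 4.40 in GFP cells and 2.88, 2.92, 2.90 and 2.88 in VEGF-up cells. The VEGF-up arrays were at background, so it was at least 2.84-fold lower (adjusted p = 9.16e-05). Vps4b, an ATPase gene that recycles the ESCRT machinery, had levels of 11.92, 11.87, 11.86 and 11.85 in GFP cells and 11.02, 11.06, 11.12 and 11.13 in VEGF-up cells and fell by 0.79 ± 0.03 (SE, adjusted p = 7.43e-08), and M6pr, a receptor gene that sorts lysosomal enzymes, fell by 0.48 ± 0.02 (SE, adjusted p = 3.79e-07). In VEGF-down cells Vps4b lay at -0.01 relative to GFP, and the direct test between the shRNA groups gave -0.78 ± 0.03 (SE, adjusted p = 3.29e-09). The executioner protease gene Casp6 fell by 0.94 ± 0.06 (SE, adjusted p = 2.35e-06) and Septin4, of a family of filament-forming GTPases, fell by 0.86 ± 0.03 (SE, adjusted p = 2.26e-07). Ehd3, a gene of endosomal recycling, fell from 7.77 to 6.77 (adjusted p = 3.79e-07), Hal, which degrades histidine, fell by 1.16 ± 0.06 (SE, adjusted p = 9.46e-07), and Angptl7 fell by 1.08 ± 0.07 (SE, adjusted p = 2.83e-06). Selp, the P-selectin gene of platelets and endothelium, fell by 1.21 ± 0.10 (SE, adjusted p = 1.29e-05), and the glycolytic aldolase gene Aldoc fell by 1.36 ± 0.09 (SE, adjusted p = 4.7e-06). Several of these falls were shared with VEGF-down cells, where Ecrg4 was at background too (2.87). Relative to GFP, VEGF-down cells were also lower for Ehd3 (-1.86), Hal (-1.21), Angptl7 (-2.21), Aldoc (-1.71) and M6pr (-0.15). They were higher for Septin4 (0.60) and Selp (0.72), and Casp6 (0.16) did not pass. Other rises outside the lists were those of the carbonic anhydrase gene Car6 (1.42 ± 0.17 SE, adjusted p = 0.000218) and Hoatz (1.20 ± 0.15 SE, adjusted p = 0.000339).

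The authors' deposited table for this shRNA lists 794 genes, 325 higher and 469 lower, from a test that the file does not describe. All 794 had the same direction in the fit reported here, from the same arrays, and 781 passed its test, while 1510 further probe sets passed here. The smallest fold in the authors' deposited table is 1.22 and its largest p is 0.00997. The largest rise in the authors' deposited table is that of Cdsn, 3.26-fold, and the largest fall that of Ces1d, -5.37.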

How the data were processed

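RNA of 12 samples of C166 cells was measured on 1-colour Affymetrix arrays. The authors deposited intensity values for 17370 probe sets, which per the submitters' processing notes were made with GCRMA, a background correction, quantile normalization and summary of probes. Quantile normalization gives each array the same overall spread of intensity, so a change shared by most genes would not show. The table holds intensity on a linear scale, and log2 was taken here, as the deposited values are not logs. The authors' deposited table of fold, T-statistic score, p-value and q-value for this shRNA was used only where it is named.

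After 64 controls were left out, 17306 probe sets were tested with limma 3.58.1 in R 4.3.3, with 1 mean per group over all 12 arrays, a variance trend, two-sided tests and Benjamini-Hochberg adjustment over all probe sets, at 0.05. Tests were checked on simulated data. Symbols came from GEO's platform annotation updated through RefSeq; 842 probe sets had none. Gene lists, members and tests were chosen with earlier results of these data known, so no p is adjusted over a list. Named genes are the 30 largest rises and falls and the 10 largest moderated t values in each direction among genes that passed, did not overlap and were above background, the 3 largest in each direction in the authors' table, Vegfa, and list members. The number of arrays limits the precision. Alternatives were quantile, median and spike-in scaling, an offset, a background filter, no trend, 8 arrays alone, a replicate block and leaving out each array.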

Additional observations from a re-analysis of the deposited data

Results flagged for a closer look

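Among 146 groups of 4 arrays examined over the genes named by rule, 14 had an array that stood apart from the other 3 by Dixon's ratio at the 95% level. A share of about 5% would be flagged by chance. The flagged arrays were spread over both groups and gene by gene, and no cause was tested.

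In the GFP group, replicate 1 was high for Serpinb1a at 5.84, against 5.66 to 5.69 on the other arrays, and for Chchd10 at 5.14, against 4.89 to 4.92. GFP replicate 2 was high for Vegfa at 7.37, against 7.13 to 7.15, and low for Spon2 at 4.46, against 4.57, and for Selp at 5.42, against 5.56. GFP replicate 3 was high for Klhl30 at 5.91, against 5.79.

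In the VEGF-up group, replicate 3 was high for Hoatz at 5.76, against 5.59 to 5.61, for Selp at 4.48, against 4.24 to 4.28, and for Myh1 at 4.14, against 4.10. The same array was low for Cnn1 at 6.17, against 6.59 to 6.66, and for Myd88 at 8.14, against 8.18 to 8.19. VEGF-up replicate 2 was high for Ctif at 5.99, against 5.45 to 5.46, and for Agt at 6.21, against 6.12 to 6.13, and VEGF-up replicate 4 was low for Dact1 at 5.03, against 5.28 to 5.29. These genes other than Vegfa were named on condition that the groups did not overlap, so their lack of overlap is no check on the flagged arrays.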

How the results depend on the processing

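The comparison rests on 4 arrays a group of 1 cell line and on GCRMA values, and signal at or below background could not be ranked. Probe sets changed between GFP and VEGF-up cells numbered 2291, and between 1883 and 2455 when single arrays were left out, with 939 to 1174 rises and 927 to 1281 falls. Scaling to the spike-ins left 179 rises and 3183 falls, moved the share of rises among the changes from 50.9% to 5.32%, and brought Vegfa to 0.17 (adjusted p = 0.1). These calls rest on a different estimate of spread from that of the main fit. With median centring that share was 60.2%. The log2 difference of Vegfa lay between 0.30 and 0.41 without single arrays. In VEGF-up against VEGF-down cells 5288 probe sets changed, 11521 with median centring, and between 4836 and 5054 without single arrays. The cause of these shifts was not tested. The correlations of same-numbered deviations were 0.00124, 0.00358, 0.0742 and 0.163. Differently numbered arrays were not correlated for reference, so these values cannot decide whether replicate numbers pair the samples. With a replicate block 2085 probe sets changed, with 1044 rises and 1041 falls, Vegfa differed by 0.34 (adjusted p = 0.00567), and 5084 changed between the shRNA groups. Of 72 named genes other than Vegfa, Ctif lost its call with the block (adjusted p = 0.0564), and Ctif, Ly6e and Slamf9 did so in the fit of the 8 arrays alone.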

Other observations

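Values outside the comparisons are few. The 842 probe sets without a gene symbol held 86 of the changed ones and cannot be named here. Of the changed probe sets 22 lay at background in both groups, and none of these is described above except Cxcl10.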
